A study of Mus musculus with 6 samples.

Results

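The 41 genes described here belong to the amino acid response that runs through the transcription factor ATF4 and its partner CHOP. They were taken by symbol from a table of 24421 gene symbols, and each symbol was present in 1 row. They fall into 12 ATF4-CHOP factors and effectors, 11 genes of amino acid and folate-linked carbon synthesis, 5 amino acid transporters, and a set of 13 that holds 12 cytosolic tRNA synthetases and the tRNA export receptor gene Xpot. All 41 passed the filter used for testing, a mean of at least 1 FPKM over the 6 libraries (fragments per kilobase of gene length, scaled to library size, as deposited by the authors), as did 10748 genes in all.

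The study treated 3 murine pancreatic ductal adenocarcinoma lines, 6499c4, 6419c5 and 2838c3, with 250 nM G-1, a small molecule that activates the oestrogen receptor GPER at the cell surface, or with the solvent DMSO as vehicle, for 16 hours. Each line gave 1 library per treatment, so a treatment holds 3 libraries and a line holds 2. The cells came from the Stanger laboratory and were grown in DMEM with serum. The labels do not say how the lines were derived, nor whether the libraries of a line came from separate cultures, so p-values measure only the spread between these libraries.

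Reads in genes ranged from 5455990 to 8645057 in the G-1 libraries and from 7213624 to 8890821 in the vehicle libraries, and 6419c5 was the least deeply sequenced line in both. Gper1, which encodes GPER itself, had 0 reads in every library, which allows up to 3 reads per library. All 8 epithelial markers examined had reads and 7 averaged at least 1 FPKM. Their summed level was 3240 to 5500 FPKM with G-1 and 3180 to 5490 FPKM with vehicle. Keratins made up most of this sum, with Krt18 averaging 1910 FPKM. Epcam had only 20 reads with G-1 and 5 with vehicle in 2838c3, and Cldn4 was below 1 FPKM in every library. None of 8 fibroblast and endothelial markers averaged 1 FPKM (summed level 0.204 to 1.98 FPKM with G-1 and 0.335 to 2.6 FPKM with vehicle), with Col1a2, Dcn and Lum at 0, and none of 7 leukocyte markers did (0.153 to 0.855 FPKM with G-1 and 0.0 to 0.615 FPKM with vehicle), with Adgre1 among those at 0. Of 8 acinar and islet markers only Cela1 had reads (0.166 to 7.31 FPKM with G-1 and 0.633 to 3.91 FPKM with vehicle).

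Cells that run short of an amino acid, or whose endoplasmic reticulum is loaded with unfolded protein, phosphorylate the initiation factor eIF2, which slows translation in general and favours translation of the Atf4 message. ATF4 pairs with C/EBP proteins and binds composite C/EBP-ATF elements in genes for amino acid synthesis, amino acid uptake and tRNA charging. It also induces Ddit3, which encodes CHOP, and effectors such as Trib3 and Chac1, and because ATF4 itself is controlled largely at translation, the Atf4 message is only part of the pathway's state.

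The promoter windows of these genes were searched for the core of the composite element, since ATF4 and C/EBP proteins bind that element. RefSeq windows in build GRCm38.p6, each running 250 bases before to 50 bases after an annotated start, were available for 32 of the 41. The core searched was TGATGNAA on both strands, where N is any base. It was found in 14 of the 32, or 43.8%, against 1219 of 27025 genes with a window, or 4.51%. The 14 were 4 of 12 factors and effectors, 3 of 9 synthesis genes, 2 of 3 transporters and 5 of 8 genes of the synthetase set. Among genes outside the 41, the core was in 0 of 8 other cytosolic synthetase and scaffold genes, 0 of 14 mitochondrial synthetase genes and 5 of 13 further genes described as ATF4-responsive. The cAMP response element TGACGTCA, a palindrome, was in 1 of the 32, Ppp1r15a, and in 2.03% of all genes with a window. A match describes the letters in the window and does not show binding, and no match says only that these letters are not in the window. The members were listed as genes of the ATF4 response, so their share with the core is not independent evidence of that link.

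**Figure D1:**
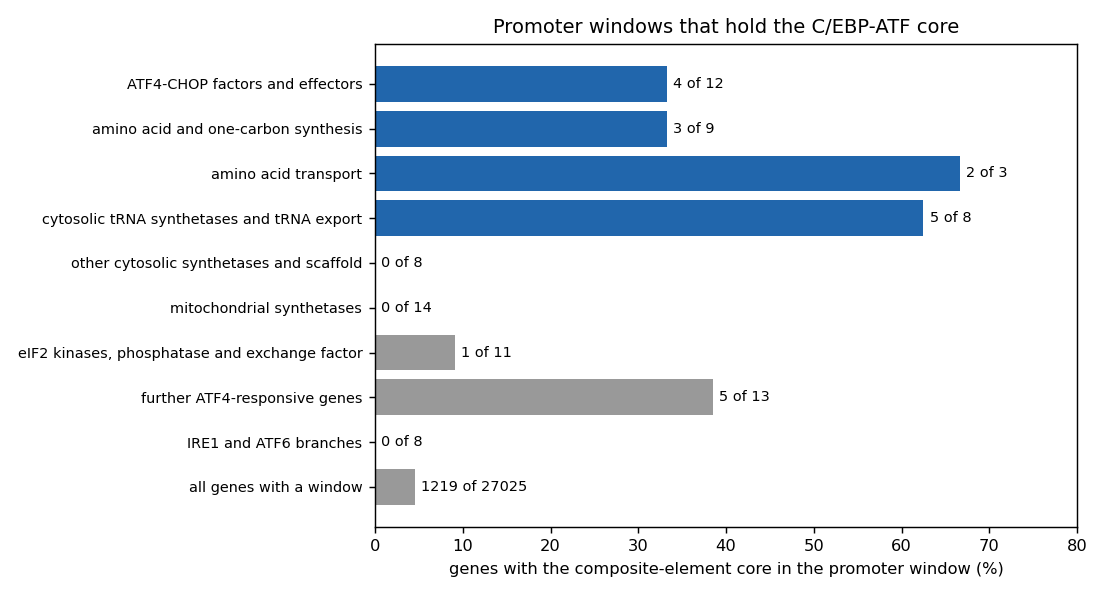
Share of genes whose promoter window holds the core of the C/EBP-ATF composite element (horizontal axis, percent), for the 4 groups of members (blue) and for other gene lists and all genes with a window (grey). The core was in 62.5% of the windows of the synthetase set and 66.7% of those of the transporters, against 4.51% of all genes with a window.

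Stretches around the matches that lie before the start are shown for 9 of the members with the core, with the matched letters in capitals, to let the element and its surroundings be compared. Each is read 5′ to 3′ on the gene's own strand, and a match that reads TTGCATCA, TTTCATCA or TTACATCA is the core on the opposite strand. Where GENCODE annotates an exon at the place, at most 30 bases are shown.
Slc7a11: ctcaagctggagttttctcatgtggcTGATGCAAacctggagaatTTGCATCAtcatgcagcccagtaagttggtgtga
Chac1: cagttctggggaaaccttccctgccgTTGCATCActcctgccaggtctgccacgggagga
Pycr1: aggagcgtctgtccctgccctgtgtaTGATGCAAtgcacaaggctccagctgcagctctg
Pck2: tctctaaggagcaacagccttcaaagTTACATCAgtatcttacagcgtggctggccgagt
Gars: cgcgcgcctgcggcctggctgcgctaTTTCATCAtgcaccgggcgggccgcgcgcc
Asns: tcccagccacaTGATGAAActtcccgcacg
Nupr1: aaagggccagaTTGCATCAgacagggcttg
Vldlr: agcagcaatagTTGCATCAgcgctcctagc
Tars: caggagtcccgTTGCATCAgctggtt

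In GRCm38.p6 the stretches lie at chr3:50443627-50443705 on the minus strand (Slc7a11), chr2:119351023-119351082 on the plus strand (Chac1), chr11:120643818-120643877 on the minus strand (Pycr1), chr14:55540137-55540196 on the plus strand (Pck2) and chr6:55037945-55038000 on the plus strand (Gars). The shorter ones lie at chr6:7693214-7693243 on the minus strand (Asns), chr7:126625562-126625591 on the minus strand (Nupr1), chr19:27216809-27216838 on the plus strand (Vldlr) and chr15:11399659-11399684 on the minus strand (Tars). Slc7a11 was the member with 2 cores before its start, on opposite strands, whose first bases lie at positions -66 and -47 counted from the start. In Iars, Yars and Trib3 the match lies at or after the annotated start, at positions 8, 4 and 15, and in Slc1a4 it spans the start. Aars, whose stretch is not shown, has a core before its start, from position -112, and another after it, from position 10.

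The stretch of Ppp1r15a, at chr7:45526269-45526306 on the minus strand, is shown with its cAMP response element in capitals, because it is the member whose window held this element.
Ppp1r15a: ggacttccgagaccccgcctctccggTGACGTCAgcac

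The core was set against the expression values. The median difference between G-1 and vehicle was 0.02 on the log2 scale in the 14 members with the core and 0.02 in the 18 without it. The median span between the highest and the lowest line mean was 0.50 with the core and 0.53 without it. These are descriptions of the members that had a window.

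Levels per length ranged widely within the genes. Over the 6 libraries, Phgdh averaged 231 FPKM, Psat1 196, Gars 191, Nars 185, Atf4 170, Aars 109 and Shmt2 108 FPKM. At the low end Pycr1 averaged 1.90 FPKM, Vldlr 2.57, Aldh1l2 3.26 and Sesn2 3.99 FPKM. The median member lay at 40.8 FPKM with G-1 in 6499c4, 35.5 in 6419c5 and 32.9 in 2838c3, against 45.3, 32.0 and 33.5 FPKM in the vehicle libraries of the same lines, while the median tested gene lay between 12.9 and 13.4 FPKM in all 6 libraries. The synthetase set was the group of highest typical level, and the factors and effectors were low but for Atf4 and Nupr1.

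**Figure D2:**
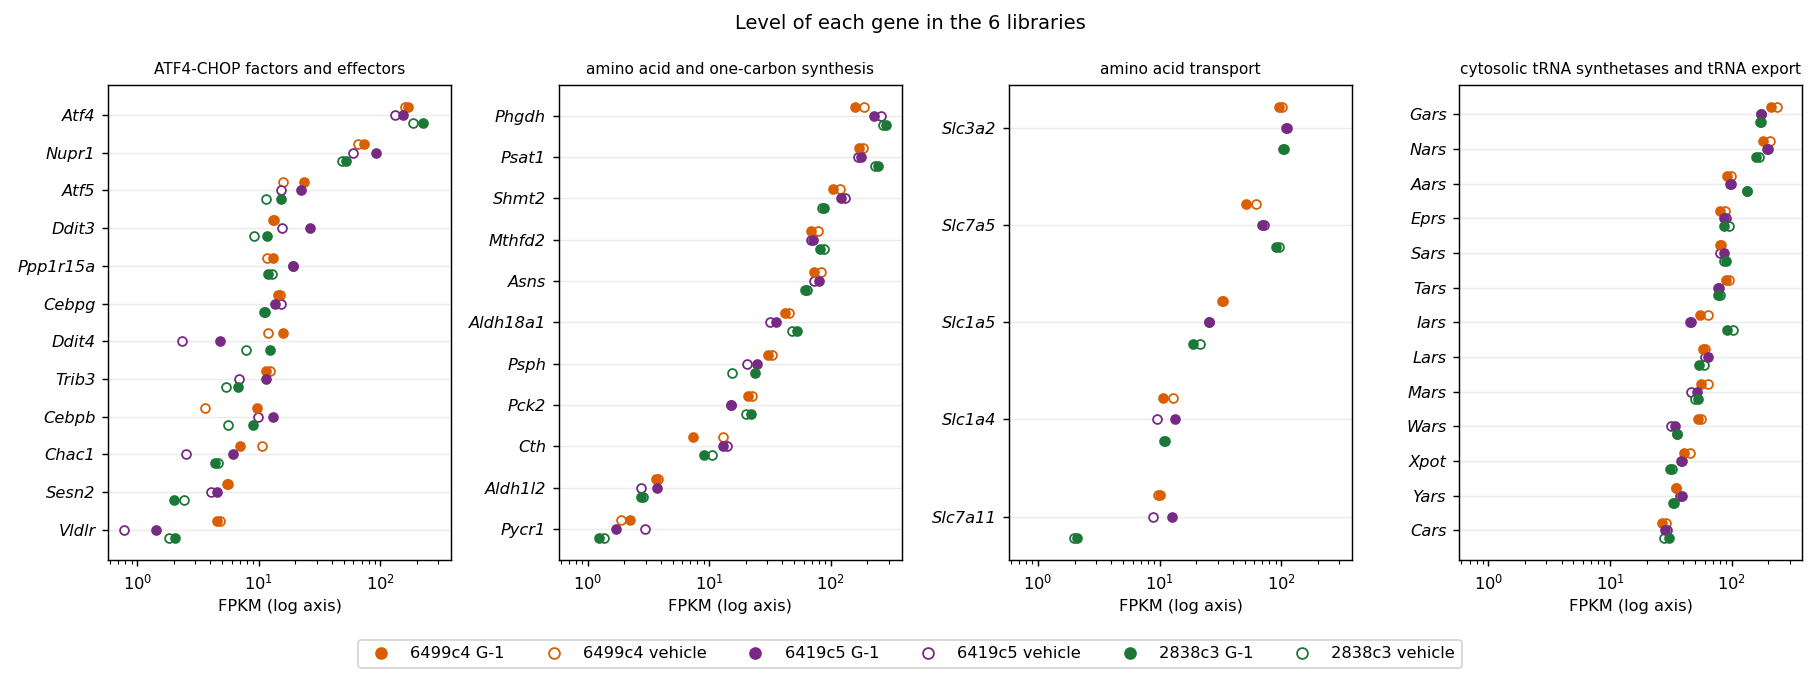
Level of each member in the 6 libraries (horizontal axis, FPKM, log axis), by group; filled circles are G-1 libraries, open circles vehicle libraries, and colours mark the line. In Slc7a11 and Iars the circles of 2838c3 stand apart from those of both other lines, and in Ddit4, Cebpb and Atf5 the filled circle lies to the right of the open circle of its line in all 3 lines.

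G-1 was set against vehicle across the lines, the question being how the agonist changes expression in these tumour cells. None of the 41 members passed the test, limma on log2(FPKM + 1) with the line as a block and Benjamini-Hochberg adjustment over 10748 genes at 0.05. Among all genes 3 passed, or 0.0279%, of which 0.0093% of all genes were higher and 0.0186% lower with G-1. At an unadjusted p below 0.05 there were 7 members, beside 10.1% of all genes, and limma-voom on whole reads recovered from the values called 2 members, Atf5 and Cebpb, beside 1.61% of all genes. By sign alone, 8 members were higher with G-1 in all 3 lines, beside 15.4% of all genes, 6 were lower in all 3, beside 17.5% of all genes, and 27 were mixed. The 8 were Atf4, Atf5, Ddit3, Ddit4, Cebpb, Nupr1, Slc7a11 and Sars, and the 6 were Cth, Slc7a5, Slc3a2, Xpot, Nars and Eprs.

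The 4 groups did not look alike in this contrast. In bulk libraries, fewer cells with a message and less of it per cell cannot be told apart. The median log2 difference was 0.24 over the factors and effectors, of which 10 of 12 had a positive mean, beside 5162 of 10748 genes tested. Of these 12, 6 were higher in all 3 lines, beside 15.4% of all genes, and 0 were lower in all 3, beside 17.5%. The median was -0.02 over the synthesis genes, -0.03 over the transporters and -0.04 over the synthetase set, against -0.01 over all genes tested. The median of the factors and effectors came to 0.11 with 6419c5 left out, 0.27 with 2838c3 left out and 0.40 with 6499c4 left out, so its size depends on which lines are in it. Of the 7 members at an unadjusted p below 0.05, 6 were factors or effectors and the other was Cth.

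Cebpb encodes C/EBPβ, a leucine zipper factor that can pair with ATF4. In GRCm38, to which all positions here refer, it spans bases 167688915 to 167690418 of chromosome 2, plus strand. With G-1, Cebpb had 9.61 FPKM in 6499c4, 13.1 in 6419c5 and 8.96 in 2838c3, against 3.60, 9.78 and 5.62 FPKM in the vehicle libraries of the same lines. Each G-1 library was above its own vehicle library, although the 6419c5 vehicle library was above 2 of the G-1 libraries. The read ratio was 2.67 in 6499c4 (exact 95% interval 1.90 to 3.80), 1.34 in 6419c5 (1.01 to 1.76) and 1.59 in 2838c3 (1.18 to 2.17), intervals that cover counting error only. Over the 3 lines the log2 difference averaged 0.73 (SE 0.16), with an adjusted p of 0.294 in limma and 0.0233 in limma-voom.

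Ddit4, on chromosome 10 from 59949669 to 59951834 on the minus strand, encodes REDD1, a stress-induced inhibitor of mTORC1 signalling. Ddit4 had 15.8 FPKM in 6499c4, 4.80 in 6419c5 and 12.4 in 2838c3 with G-1, against 11.9, 2.33 and 7.91 FPKM with vehicle in the same lines. It was higher with G-1 in every line, and 6419c5 stood below both other lines with either treatment. Its read ratios were 1.33 in 6499c4 (interval 1.09 to 1.63), 2.06 in 6419c5 (1.26 to 3.44) and 1.57 in 2838c3 (1.23 to 2.0). The mean log2 difference was 0.59 (SE 0.11), with an adjusted p of 0.238 in limma and 0.0569 in limma-voom.

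Atf5, on chromosome 7 from 44812256 to 44816658 on the minus strand, encodes a factor related to ATF4 whose translation is also favoured when eIF2 is phosphorylated. Atf5 had 23.6 FPKM in 6499c4, 22.1 in 6419c5 and 15.2 in 2838c3 with G-1, against 15.7, 15.3 and 11.5 FPKM with vehicle in the same lines. All 3 G-1 libraries were above their own vehicle libraries, and the lowest of them, from 2838c3, lay within the vehicle range. Read ratios were 1.5 in 6499c4 (interval 1.28 to 1.76), 1.44 in 6419c5 (1.2 to 1.74) and 1.32 in 2838c3 (1.09 to 1.6). Of the 41 genes, Atf5, Cebpb and Ddit4 were the 3 whose counting interval lay above 1 in every line. Among all genes, such intervals were found for 17.9% in 6499c4, 7.77% in 6419c5 and 12.6% in 2838c3. The share of all genes with such intervals in every line was not counted, so whether 3 of 41 is unusual is not known. The mean log2 difference of Atf5 was 0.48 (SE 0.08), with an adjusted p of 0.216 in limma and 0.00846 in limma-voom. These 3 messages are rich in G and C (67.2% in Cebpb, 57.9% in Ddit4 and 61.7% in Atf5), and after a correction for GC content and length their log2 differences were 0.61, 0.47 and 0.36 with adjusted p of 0.388, 0.445 and 0.388 in limma. Exons of Cebpb and of Atf5 overlap genes on the other strand, by 312 and 164 bases, and the sources used here do not give whether reads were counted by strand.

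Atf4 and Ddit3, the factors that name the group, differed less. Atf4 had 169 FPKM in 6499c4, 154 in 6419c5 and 224 in 2838c3 with G-1, against 161, 131 and 185 FPKM with vehicle in the same lines. The interval of its read ratio lay above 1 in 6419c5 (1.18, interval 1.10 to 1.27) and 2838c3 (1.21, 1.15 to 1.27) and held 1 in 6499c4 (1.05, 0.99 to 1.11). Its mean log2 difference was 0.19 (SE 0.06, limma adjusted p = 0.398). Ddit3 had 13.3 FPKM in 6499c4, 26.4 in 6419c5 and 11.7 in 2838c3 with G-1, against 13.2, 15.6 and 9.12 FPKM with vehicle in the same lines. Its read ratio was 1.69 in 6419c5 (interval 1.29 to 2.23), with intervals that held 1 in the other lines, and its mean log2 difference was 0.35 (SE 0.13, limma adjusted p = 0.455). Ddit3 and the synthetase gene Mars lie end to end on opposite strands of chromosome 10 (Ddit3 127290774 to 127296288, Mars 127296221 to 127311786, GRCm38) and share 68 bases of exon.

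Among the effectors, 6419c5 was the line with the most intervals above 1. Nupr1, a small stress-induced chromatin protein gene, had 92.1 FPKM with G-1 against 59.9 FPKM with vehicle there (read ratio 1.54, interval 1.30 to 1.82), and Trib3, a pseudokinase gene that feeds back on ATF4, had 11.5 FPKM with G-1 against 6.83 FPKM with vehicle (1.68, 1.28 to 2.20). Vldlr, a lipoprotein receptor gene induced through ATF4, had 1.44 FPKM with G-1 against 0.775 FPKM with vehicle there (1.85, 1.25 to 2.77). Chac1 encodes an enzyme that degrades glutathione. It had 6.08 FPKM with G-1 against 2.50 FPKM with vehicle in 6419c5 (ratio 2.44, 1.51 to 4.01), 7.07 FPKM with G-1 against 10.7 FPKM with vehicle in 6499c4 (0.660, 0.503 to 0.862) and 4.40 FPKM with G-1 against 4.61 FPKM with vehicle in 2838c3 (0.954, 0.657 to 1.39). Its mean log2 difference, 0.14 (SE 0.26), therefore joins opposite directions. Sesn2, Cebpg and Ppp1r15a had intervals that held 1 in all 3 lines. Sesn2 encodes a leucine sensor, Cebpg a C/EBP partner of ATF4, and Ppp1r15a the GADD34 subunit of the phosphatase that restores eIF2.

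**Figure D3:**
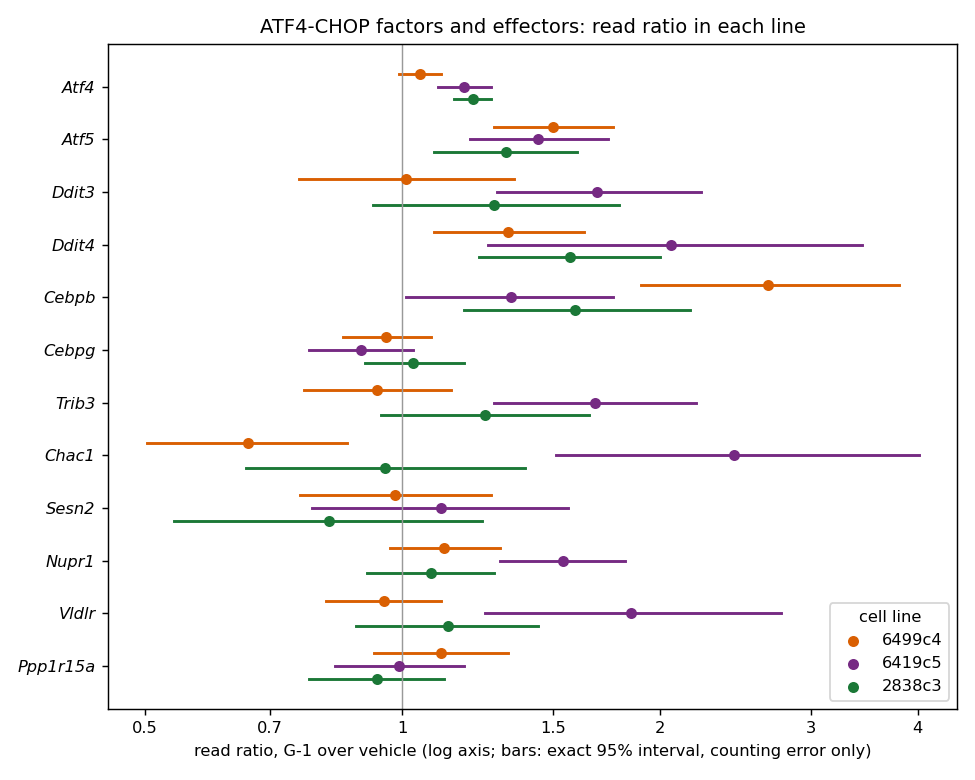
Read ratio of G-1 to vehicle for the 12 factors and effectors in each line (horizontal axis, log axis), with exact 95% intervals that cover counting error only. Atf5, Cebpb and Ddit4 lie to the right of 1 in all 3 lines, 9 of the 12 do so in 6419c5, and Chac1 lies on opposite sides of 1 in 6419c5 and 6499c4.

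Line by line, the groups parted. Over the factors and effectors the median log2 difference between G-1 and vehicle was 0.04 in 6499c4, 0.48 in 6419c5 and 0.19 in 2838c3, against 0.00, -0.00 and -0.01 over all genes tested. Intervals above 1 were found for 9 of these 12 genes in 6419c5, beside 7.77% of all genes, for 3 in 6499c4, beside 17.9%, and for 4 in 2838c3, beside 12.6%. Intervals below 1 were found for 0 of them in 6419c5, beside 8.76% of all genes, for 1, Chac1, in 6499c4, beside 17.7%, and for 0 in 2838c3, beside 18.2%. Over the synthetase set the medians were -0.12 in 6499c4, 0.02 in 6419c5 and -0.03 in 2838c3, and over the synthesis genes they were -0.11, 0.06 and 0.08 in the same order. In 6499c4, 12 of the 13 genes of the synthetase set and 10 of the 11 synthesis genes had a lower value with G-1. Among all genes tested, 5355 of 10748 did. Intervals in this line lay below 1 for 7 of 13 and 7 of 11, beside 17.7% of all genes. Such intervals narrow as reads rise, and both groups lay above the typical gene in level. With G-1 in 6499c4 the median was 58.2 FPKM over the synthetase set and 41.8 FPKM over the synthesis genes, against 13.0 FPKM over all genes tested. The shares of all genes with such intervals were not matched for level. Intervals lay above 1 in a line and below 1 in another for 7 of the 41 members, beside 5.64% of all genes. Each of these medians and counts rests on a single pair of libraries, so whether the lines responded differently was not tested.

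**Figure D4:**
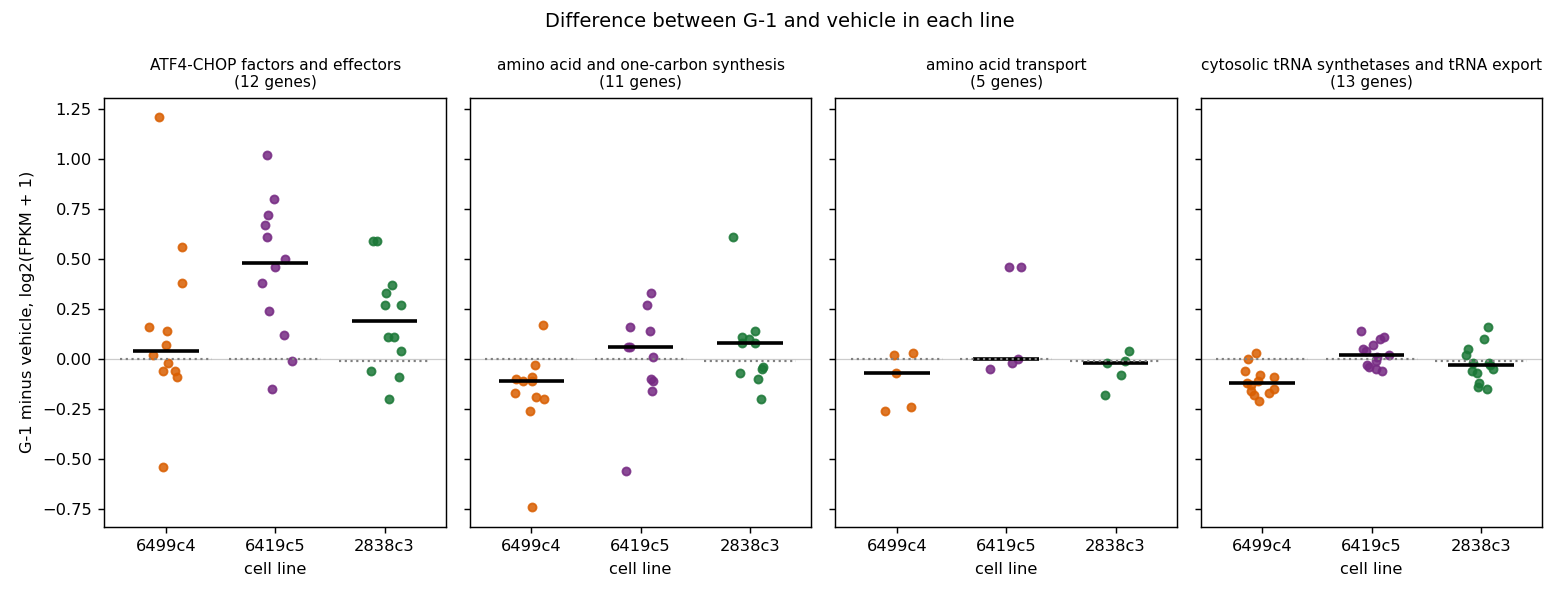
Difference between G-1 and vehicle for each member (vertical axis, log2(FPKM + 1)) in the 3 lines, by group, with 1 point per gene; black bars are medians of the group and dotted bars medians over all genes tested. The factors and effectors have a median of 0.48 in 6419c5, and the synthesis genes and the synthetase set lie below 0 in 6499c4 (medians -0.11 and -0.12).

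The synthesis genes make serine, glycine, asparagine, proline and cysteine and feed the mitochondrial folate cycle. None passed the test for G-1. Cth, the cystathionine gamma-lyase that releases cysteine, had 7.34 FPKM in 6499c4, 12.9 in 6419c5 and 9.11 in 2838c3 with G-1, against 13.0, 14 and 10.6 FPKM with vehicle in the same lines. It was lower with G-1 in every line, most so in 6499c4 (ratio 0.566, interval 0.444 to 0.717), and its mean log2 difference was -0.35 (SE 0.13, limma adjusted p = 0.459), or -0.15 without 6499c4. Members of the serine pathway differed from each other. Phgdh, its entry enzyme, had 158 FPKM in 6499c4, 229 in 6419c5 and 285 in 2838c3 with G-1, against 189, 257 and 269 FPKM with vehicle in the same lines. Psph, its last enzyme, had 30.6 FPKM in 6499c4, 24.7 in 6419c5 and 23.8 in 2838c3 with G-1, against 32.8, 20.3 and 15.3 FPKM with vehicle in the same lines. The read ratio of Psph was 1.56 in 2838c3 (interval 1.30 to 1.87) and 0.934 in 6499c4 (0.813 to 1.07), and its mean log2 difference was 0.26 (SE 0.12, limma adjusted p = 0.531). Psph shares 452 exon bases with Cct6a on the other strand.

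Pycr1, which makes proline, had the lowest mean level, with 27 to 52 reads in the G-1 libraries and 34 to 62 reads in the vehicle libraries. It had 2.23 FPKM in 6499c4, 1.70 in 6419c5 and 1.25 in 2838c3 with G-1, against 1.87, 2.98 and 1.36 FPKM with vehicle in the same lines, and its mean log2 difference was -0.15 (SE 0.17, limma adjusted p = 0.785). Asns, the asparagine synthetase gene whose promoter stretch is shown above, had a mean log2 difference of -0.02 (SE 0.07), with a ratio of 0.887 in 6499c4 (interval 0.820 to 0.960), 1.10 in 6419c5 (1.0 to 1.21) and 0.975 in 2838c3 (0.893 to 1.06). The other members of the group (Psat1, Shmt2, Mthfd2, Aldh1l2, Aldh18a1 and Pck2) had mean log2 differences between -0.08 and 0.08.

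Of the transporters, Slc7a11 encodes the cystine carrier xCT, which brings in cystine for glutathione synthesis, and Slc3a2 encodes the heavy chain that carries both xCT and LAT1 to the membrane. Slc7a11 had 10 FPKM in 6499c4, 12.6 in 6419c5 and 2.08 in 2838c3 with G-1, against 9.76, 8.85 and 1.99 FPKM with vehicle in the same lines. It was higher with G-1 in every line, with an interval above 1 in 6419c5 alone (ratio 1.42, interval 1.27 to 1.59), and its mean log2 difference was 0.18 (SE 0.12, limma adjusted p = 0.636). Slc7a5, which encodes the leucine carrier LAT1, had 51.7 FPKM in 6499c4, 69.5 in 6419c5 and 90.8 in 2838c3 with G-1, against 62.1, 71.8 and 95.7 FPKM with vehicle in the same lines. It was lower in every line, with a ratio of 0.833 in 6499c4 (interval 0.778 to 0.892), and its mean log2 difference was -0.13 (SE 0.07, limma adjusted p = 0.549). The neutral amino acid exchanger gene Slc1a4 had 10.6 FPKM in 6499c4, 13.4 in 6419c5 and 10.9 in 2838c3 with G-1, against 12.8, 9.48 and 11 FPKM with vehicle in the same lines. Its ratio was 1.41 in 6419c5 (interval 1.19 to 1.67) and 0.833 in 6499c4 (0.722 to 0.962), so its mean log2 difference of 0.07 (SE 0.13) also joins opposite directions. Slc1a5, the glutamine carrier ASCT2, was at -0.05 (SE 0.07) and Slc3a2 at -0.03 (SE 0.05).

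Aminoacyl-tRNA synthetases load each amino acid onto its tRNA. The 13 genes of this set had mean log2 differences between G-1 and vehicle from -0.11 to 0.06, with a median absolute difference of 0.04, and none had an unadjusted p below 0.05. Eprs, the bifunctional glutamyl-prolyl enzyme, had 80 FPKM in 6499c4, 86.3 in 6419c5 and 86.9 in 2838c3 with G-1, against 87.6, 90.0 and 96.0 FPKM with vehicle in the same lines. All 3 of its G-1 libraries were below all 3 vehicle libraries, with a mean log2 difference of -0.11 (SE 0.06, limma adjusted p = 0.548). Iars, the isoleucyl enzyme, had the same mean, -0.11 (SE 0.07, limma adjusted p = 0.626), with ratios of 0.864 in 6499c4 (interval 0.814 to 0.916), 1.03 in 6419c5 (0.951 to 1.11) and 0.901 in 2838c3 (0.860 to 0.943). Nars, the asparaginyl enzyme, had 183 FPKM in 6499c4, 197 in 6419c5 and 159 in 2838c3 with G-1, against 206, 199 and 168 FPKM with vehicle in the same lines, a mean log2 difference of -0.09 (SE 0.06, limma adjusted p = 0.637). Xpot was at -0.08 (SE 0.06). In 6499c4, where the set had a median of -0.12, the 11 other cytosolic synthetase and scaffold genes had 0.03 and the 17 mitochondrial synthetase genes -0.15.

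The lines were compared with each other. In limma on the same fit, with treatment as covariate, 2 libraries per line and Benjamini-Hochberg adjustment over all genes, 22 members differed between 6419c5 and 2838c3 (13 higher and 9 lower in 6419c5), beside 51.5% of all genes (26.2% higher and 25.3% lower). Between 6499c4 and 2838c3, 23 differed (17 higher and 6 lower in 6499c4), beside 55.6% of all genes (26.6% higher and 28.9% lower). Between 6499c4 and 6419c5, 17 differed (12 higher and 5 lower in 6499c4), beside 45% of all genes (21.3% higher and 23.7% lower). A total of 31 members differed in at least 1 pair, beside 75.4% of all genes, a share near that of the members. The libraries of the lines did not overlap for 32 of the 41 members between 6419c5 and 2838c3, beside 76.9% of all genes, for 32 between 6499c4 and 2838c3, beside 76.8%, and for 24 between 6499c4 and 6419c5, beside 73.5%. The counts depend on single libraries. That of 6419c5 against 2838c3 was 12 without the G-1 library of 2838c3, and that of 6499c4 against 6419c5 was 7 without the vehicle library of 6419c5, 10 without its G-1 library and 11 without the vehicle library of 6499c4.

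The 2838c3 line had the highest Atf4, while other members were highest or lowest there. Atf4 fell by 0.52 on the log2 scale in 6419c5 (SE 0.08, adjusted p = 0.00115 in limma) and by 0.30 in 6499c4 (SE 0.08, adjusted p = 0.0114) relative to 2838c3, with 142 FPKM in 6419c5 and 165 FPKM in 6499c4 on average against 204 FPKM in 2838c3. The call for 6499c4 was lost without the G-1 library of 2838c3 (-0.24) and without its own G-1 library (-0.21). In all, 19 members were lowest in 2838c3 and 11 were highest there. In both other lines together, 10 members were called higher than in 2838c3, beside 15% of all genes, and 5 were called lower, beside 16.1%. The 10 were Atf5, Cebpg, Sesn2, Nupr1, Asns, Shmt2, Slc7a11, Slc1a5, Xpot and Nars, and the 5 were Atf4, Psat1, Slc7a5, Aars and Iars. Genes known as ATF4 targets stood in both lists, such as Asns and Slc7a11 in the first and Psat1 and Aars in the second. Of the 10, Slc7a11 was the one called over 2838c3 in both lines whichever library was left out.

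Slc7a11, on chromosome 3 from 49892526 to 50443614 on the minus strand, showed the largest span. Both libraries of 6499c4 (10 FPKM with G-1 and 9.76 with vehicle) and both of 6419c5 (12.6 with G-1 and 8.85 with vehicle) were above those of 2838c3 (2.08 with G-1 and 1.99 with vehicle). The log2 differences were 1.84 for 6499c4 over 2838c3 (SE 0.15, limma adjusted p = 6.09e-05) and 1.93 for 6419c5 over 2838c3 (SE 0.15, limma adjusted p = 7.6e-05), and the highest line mean was 5.25-fold the lowest. Between 6499c4 and 6419c5 the difference was -0.09 (SE 0.15, limma adjusted p = 0.66).

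Ddit4 and Vldlr were lowest in 6419c5. Ddit4 averaged 13.8 FPKM in 6499c4, 3.56 in 6419c5 and 10.1 in 2838c3, with all libraries of 6419c5 below the others. It was higher in 6499c4 than in 6419c5 by 1.74 (SE 0.13, limma adjusted p = 7.68e-05) and lower in 6419c5 than in 2838c3 (log2 difference -1.31, SE 0.13, limma adjusted p = 0.000235). Vldlr had 4.56 FPKM with G-1 and 4.80 with vehicle in 6499c4, 1.44 with G-1 and 0.775 with vehicle in 6419c5, and 2.05 with G-1 and 1.81 with vehicle in 2838c3, so its libraries did not overlap between lines. Its log2 difference was 1.45 for 6499c4 over 6419c5 (SE 0.18, limma adjusted p = 0.000674) and 0.96 for 6499c4 over 2838c3 (SE 0.18, limma adjusted p = 0.00336).

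Ddit3 was highest in 6419c5, by 0.91 over 2838c3 (SE 0.16, limma adjusted p = 0.00281), and lower in 6499c4 than in 6419c5 (log2 difference -0.58, SE 0.16, limma adjusted p = 0.0221). The second of these calls was lost without the G-1 library of 6499c4 (-0.33) and without that of 6419c5 (-0.31). Sesn2 was higher in 6499c4 than in 2838c3 by 1.02 (SE 0.15, limma adjusted p = 0.000891), with 5.45 FPKM with G-1 and 5.55 with vehicle in 6499c4 against 1.99 with G-1 and 2.42 with vehicle in 2838c3. Trib3 was higher in 6499c4 than in 2838c3 by 0.87 (SE 0.18, limma adjusted p = 0.00453). Chac1 was higher in 6499c4 than in 6419c5 by 0.97 (SE 0.32, limma adjusted p = 0.0419), a call lost without the vehicle library of 6499c4 (0.46) and without that of 6419c5 (0.31). Ppp1r15a was higher in 6419c5 than in 2838c3 by 0.58 (SE 0.10, limma adjusted p = 0.00288) and lower in 6499c4 than in 6419c5 (log2 difference -0.59, SE 0.10, limma adjusted p = 0.00314). The factors and effectors had 9 of 12 called between 6419c5 and 2838c3, beside 51.5% of all genes, 8 between 6499c4 and 2838c3, beside 55.6%, and 6 between 6499c4 and 6419c5, beside 45%.

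Among the synthesis genes the serine pathway again held members that went opposite ways. Phgdh averaged 173 FPKM in 6499c4 and 243 FPKM in 6419c5, against 277 FPKM in 2838c3, and was lower in 6499c4 than in 2838c3 (log2 difference -0.68, SE 0.09, limma adjusted p = 0.000663). Psat1, the aminotransferase between Phgdh and Psph, was lower than in 2838c3 in both 6499c4 (-0.42, SE 0.07, limma adjusted p = 0.00231) and 6419c5 (-0.47, SE 0.07, limma adjusted p = 0.00175). Psph was higher in 6499c4 than in 2838c3, by 0.70 (SE 0.15, limma adjusted p = 0.00632), with averages of 31.7 FPKM in 6499c4, 22.5 in 6419c5 and 19.5 in 2838c3. Shmt2, which passes the carbon of serine to folate in mitochondria, had 105 FPKM with G-1 and 119 with vehicle in 6499c4 and 122 with G-1 and 130 with vehicle in 6419c5, against 88.8 with G-1 and 84.1 with vehicle in 2838c3. It was higher than in 2838c3 by 0.54 in 6419c5 (SE 0.08, limma adjusted p = 0.00147) and by 0.37 in 6499c4 (SE 0.08, limma adjusted p = 0.00723). The call for 6499c4 was lost without its vehicle library (0.28) and without that of 2838c3 (0.26). Aldh18a1, which starts proline synthesis, had 41.8 FPKM with G-1 and 45.3 with vehicle in 6499c4 and 35.5 with G-1 and 31.8 with vehicle in 6419c5, against 52.4 with G-1 and 48.4 with vehicle in 2838c3, and was lower in 6419c5 than in 2838c3 (log2 difference -0.57, SE 0.09, limma adjusted p = 0.0017).

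Transporters of neutral amino acids also went opposite ways. Slc7a5 averaged 56.9 FPKM in 6499c4 and 70.6 FPKM in 6419c5, against 93.2 FPKM in 2838c3, and all 3 pairs passed, with log2 differences of -0.71 for 6499c4 over 2838c3 (SE 0.08, limma adjusted p = 0.000283), -0.40 for 6419c5 over 2838c3 (SE 0.08, limma adjusted p = 0.00517) and -0.31 for 6499c4 over 6419c5 (SE 0.08, limma adjusted p = 0.0163). Slc1a5 had 33.3 FPKM with G-1 and 32.8 with vehicle in 6499c4 and 25.6 with either treatment in 6419c5, against 18.9 with G-1 and 21.6 with vehicle in 2838c3. All 3 pairs passed here too, with differences of 0.68 for 6499c4 over 2838c3 (SE 0.09, limma adjusted p = 0.00058), 0.33 for 6419c5 over 2838c3 (SE 0.09, limma adjusted p = 0.0184) and 0.35 for 6499c4 over 6419c5 (SE 0.09, limma adjusted p = 0.0159). For both genes the call of 6499c4 over 2838c3 held whichever library was left out. Those of the other pairs were lost without the vehicle library of 6419c5, with differences of -0.33 and -0.37 for Slc7a5 and of 0.37 and 0.31 for Slc1a5. The 6499c4 over 6419c5 calls were also lost without the G-1 library of 6499c4 (-0.21 for Slc7a5 and 0.30 for Slc1a5) or of 6419c5 (-0.25 and 0.39), and Slc1a5 in 6419c5 over 2838c3 without the G-1 library of 6419c5 (0.29) or of 2838c3 (0.23). Slc7a5, Slc1a5, Ddit4 and Iars were the 4 members called in all 3 pairs. Ddit4 in 6499c4 over 2838c3 (0.43, limma adjusted p = 0.0292, with overlapping libraries) was lost without either library of 2838c3 (0.43 each) and without the vehicle library of 6499c4 (0.27), and it was 0.14 after correction for GC content and length. Iars in 6499c4 over 6419c5 (0.37) was lost without the vehicle library of 6499c4 (0.29) or of 6419c5 (0.26). The shared heavy chain gene Slc3a2 did not pass in any pair, nor did Slc1a4, whose lines overlapped throughout.

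The synthetase set differed less, with a median absolute difference of 0.10 between 6419c5 and 2838c3, 0.24 between 6499c4 and 2838c3 and 0.14 between 6499c4 and 6419c5, against 0.34, 0.38 and 0.30 over all genes tested. In the same order, the 11 other cytosolic synthetase and scaffold genes had 0.37, 0.27 and 0.17. The 17 mitochondrial synthetase genes had 0.28, 0.10 and 0.17. Within the set of 13, values varied by gene. Iars, at bases 49682100 to 49734267 of chromosome 13, plus strand, differed most. It had 55.5 FPKM with G-1 and 64.3 with vehicle in 6499c4 and 46.8 with G-1 and 45.5 with vehicle in 6419c5, against 91.7 with G-1 and 102 with vehicle in 2838c3, so the 3 lines did not overlap. Its log2 differences were -1.05 for 6419c5 over 2838c3 (SE 0.08, limma adjusted p = 8.7e-05) and -0.68 for 6499c4 over 2838c3 (SE 0.08, limma adjusted p = 0.000416). Wars, the tryptophanyl enzyme, which interferon also induces, had 52.6 FPKM with G-1 and 56.0 with vehicle in 6499c4 and 34.5 with G-1 and 32.0 with vehicle in 6419c5, against 35.4 with G-1 and 35.9 with vehicle in 2838c3. It was higher in 6499c4 than in 6419c5 by 0.69 (SE 0.08, limma adjusted p = 0.000501) and than in 2838c3 by 0.59 (SE 0.08, limma adjusted p = 0.000717). Aars, the alanyl enzyme, had 91.2 FPKM with G-1 and 99.4 with vehicle in 6499c4 and 97.6 with G-1 and 99.4 with vehicle in 6419c5, against 135 with G-1 and 133 with vehicle in 2838c3. It was lower than in 2838c3 in both 6499c4 (log2 difference -0.49, SE 0.07, limma adjusted p = 0.000889) and 6419c5 (-0.44, SE 0.07, limma adjusted p = 0.00177). Annotated exons of Aars share 1403 bases with other genes, Gm24103 on the other strand and Exosc6 on the same strand. Xpot, which exports tRNA from the nucleus, had 40.8 FPKM with G-1 and 45.4 with vehicle in 6499c4 and 38.1 with G-1 and 39.3 with vehicle in 6419c5, against 31.3 with G-1 and 32.6 with vehicle in 2838c3, a difference of 0.42 for 6499c4 over 2838c3 (SE 0.08, limma adjusted p = 0.00294). Cars, Sars, Eprs, Lars and Yars passed in no pair, with spans between line means of 0.07 to 0.21.

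**Figure D5:**
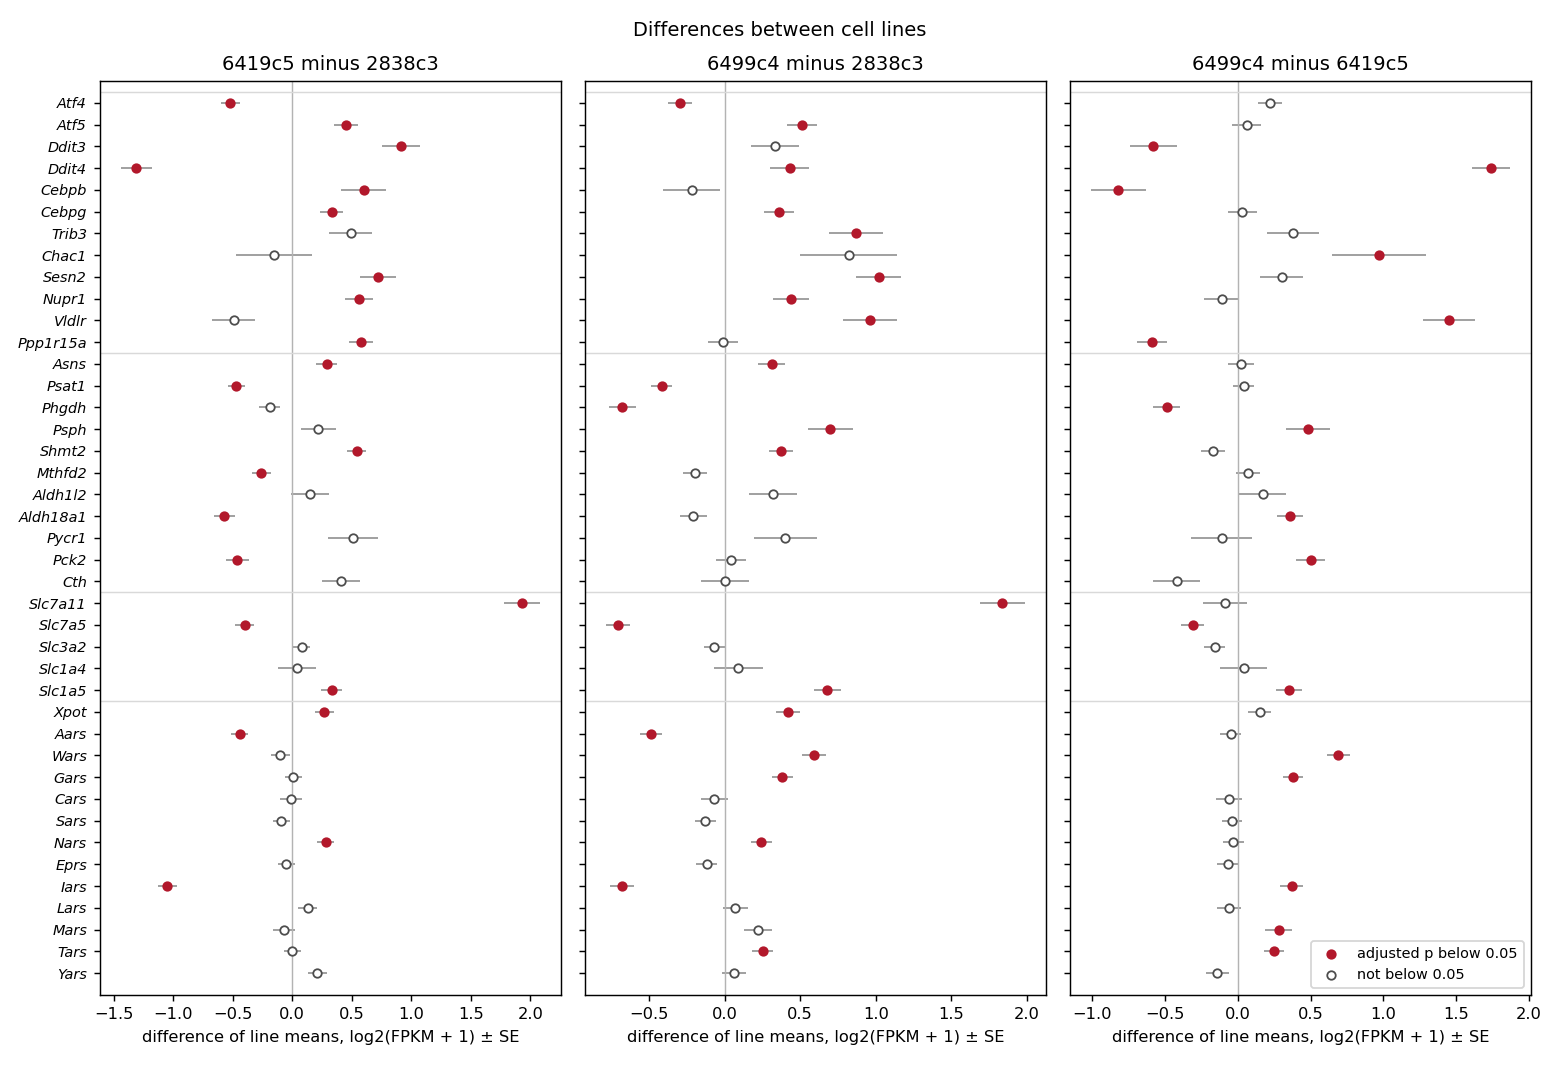
Differences between line means (horizontal axis, log2(FPKM + 1), with SE) for the 41 members in the 3 pairs of lines; red circles have a limma adjusted p below 0.05 and lines part the 4 groups. Slc7a11 lies at 1.93 and 1.84 over 2838c3, Ddit4 at 1.74 and Vldlr at 1.45 for 6499c4 over 6419c5, and Iars at -1.05 for 6419c5 over 2838c3.

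Genes around the members in the pathway were read from the same fit. The kinases, subunits and exchange factors that control eIF2 numbered 15, and 0 passed for G-1, with a median log2 difference of -0.00 and differences between -0.11 and 0.19. Of 16 further genes described as ATF4-responsive, 15 were tested and 0 passed for G-1, with a median of 0.08, and 5 were higher in all 3 lines, beside 15.4% of all genes. Fgf21 was at 0 in every library. Gdf15, a stress-induced cytokine gene, was the one with the largest difference, with 9.89 FPKM in 6499c4, 10.7 in 6419c5 and 2.81 in 2838c3 with G-1, against 4.53, 7.10 and 0.755 FPKM with vehicle in the same lines (log2 difference 0.87, adjusted p = 0.216 in limma and 0.0414 in limma-voom). Between lines, Stc2, a secreted glycoprotein gene, had 61.5 FPKM with G-1 and 54.6 with vehicle in 6499c4 and 34.5 with G-1 and 28.9 with vehicle in 6419c5, against 2.55 with G-1 and 1.43 with vehicle in 2838c3, a log2 difference of 4.33 for 6499c4 over 2838c3 (limma adjusted p = 4.73e-07). Between 6499c4 and 2838c3, 12 of its 15 genes passed, 6 higher and 6 lower, beside 55.6% of all genes (26.6% higher and 28.9% lower).

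The IRE1 and ATF6 branches, the other arms of the response to unfolded protein, were given as 10 genes. None passed for G-1 (median -0.04), while 9 passed between 6419c5 and 2838c3, 7 higher and 2 lower in 6419c5, beside 51.5% of all genes (26.2% higher and 25.3% lower). Hspa5, the chaperone BiP, had 324 FPKM with G-1 and 328 with vehicle in 6499c4 and 632 with G-1 and 584 with vehicle in 6419c5, against 514 with G-1 and 490 with vehicle in 2838c3, and was lower in 6499c4 than in 6419c5 (log2 difference -0.90, limma adjusted p = 8.01e-05). The other cytosolic synthetase and scaffold genes had 8 of 11 called between 6419c5 and 2838c3 (3 higher and 5 lower), beside 51.5% of all genes, and 8 of 11 between 6499c4 and 2838c3 (2 higher and 6 lower), beside 55.6%. Of the 17 mitochondrial ones 6 passed in the first pair (3 higher and 3 lower) and 2 in the second, both lower.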

How the data were processed

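RNA was isolated on RNeasy columns and made into NEBNext Ultra RNA libraries, per the labels' protocols. The authors deposited 1 table of FPKM values per gene symbol for the 6 libraries. The submitters' processing notes name STAR and DESeq2 without version or role. The genome build, annotation, strandedness and counting rule behind the table are not given here by any label or header.

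The FPKM values moved in whole-read steps, and each of the 15712 genes detected at all came out in whole reads (100%, within 0.01 reads). They gave the depth, the read ratios and their exact binomial intervals. Intervals and the floor of 3 reads cover counting error only.

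Genes averaging at least 1 FPKM were fitted with limma 3.58.1 in R 4.3.3 on log2(FPKM + 1), with line and treatment as terms, a variance trend and Benjamini-Hochberg adjustment over 10748 genes. Fold changes on this scale understate the change of low genes. Tests were two-sided, and the model had 2 residual degrees of freedom. Lines were the block because both libraries of a line share it by label, and their deviations from the treatment means correlated at 0.871 to 0.906. The fit was tested on simulated data. There the changed genes moved by set amounts, alike in every line, with an assumed spread between libraries. That simulation therefore does not bear on changes that differ between lines. Alternatives were another pseudocount, other filters, read totals, quantile scaling, no variance trend, limma-voom on recovered reads with a mean of at least 10, no block, and leaving out lines or libraries. A correction for GC content and length was added after seeing the data.

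Members and lists were chosen with earlier results of these data known. Full values were given for Atf4 and Ddit3 by name, and in each group for the members with the largest absolute difference between G-1 and vehicle. They were also given for those with the largest span between line means among members called in any pair of lines. Up to 3 genes per pathway list were taken by the same measures. These genes were thus picked by their values in these data and hold the extremes of each group. The other members named, and the pathway genes named beyond these, were chosen with their values seen. Gene positions come from GENCODE vM21 and promoter windows from RefSeq, both on GRCm38. The windows were searched in Python 3.11.15.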

Additional observations from a re-analysis of the deposited data

Results flagged for a closer look

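For 7 members, beside 5.64% of all genes, the read ratio of G-1 to vehicle lay above 1 in one line and below 1 in another, with exact 95% counting intervals that excluded 1 on both sides. The share of all genes was not matched for level, and these intervals narrow as reads rise. Whether the lines differ was not tested, since each rests on 1 library per treatment. The ratio of Chac1 in 6419c5 was 3.70 times that in 6499c4, and that of Slc1a4 was 1.69 times. The corresponding values were 1.25 for Mars, 1.24 for Asns and 1.21 for Aldh18a1. For Phgdh the ratio in 2838c3 was 1.27 times that in 6499c4, and for Psat1 it was 1.14 times. In all 7 genes the interval in 6499c4 was below 1, and for Phgdh that in 6419c5 was too. Mars shares 68 exon bases with Ddit3, whose ratio was 1.01 in 6499c4 and 1.69 in 6419c5. Whether the overlap bears on the values of Mars was not tested.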

How the results depend on the processing

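No member was called for G-1 under any setting but limma-voom, which called 2, Atf5 and Cebpb. Without the replicate block the count was 0, and it was 0 without any 1 line. Among all genes the count was 3, and it was 0 without the low-value filter, 181 with limma-voom and 0, 4 and 11 when 6419c5, 2838c3 and 6499c4 were left out. Signs of small differences turned for Chac1 with limma-voom (-0.11), Ppp1r15a after GC and length correction (-0.06), Wars with a pseudocount of 0.1 (0.00) and with read totals (0.02), and Cars with quantile scaling (-0.01). The cause was not tested. Leaving out 1 line at a time gave -0.30 to 0.48 for Chac1, -0.32 to 0.05 for Pycr1, -0.13 to 0.22 for Slc1a4, -0.11 to 0.05 for Sesn2, -0.10 to 0.05 for Asns, -0.05 to 0.06 for Ppp1r15a and -0.04 to 0.15 for Aldh1l2. It also gave -0.01 to 0.08 for Psat1, -0.05 to 0.08 for Pck2, -0.09 to 0.01 for Slc1a5, -0.05 to 0.04 for Wars, -0.08 to 0.06 for Cars, -0.09 to 0.01 for Lars, -0.04 to 0.12 for Mars and -0.01 to 0.03 for Yars. Without a change of sign, leaving out a line moved Cth to -0.15 (without 6499c4), Ddit3 to 0.17, Trib3 to 0.09, Nupr1 to 0.14, Vldlr to 0.03 and Slc7a11 to 0.04 (each without 6419c5) and Psph to 0.09 (without 2838c3). The median over the transporters ranged from -0.08 to 0.01.

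Leaving out 1 library at a time, the members called ranged from 12 to 26 for 6419c5 over 2838c3, from 17 to 25 for 6499c4 over 2838c3 and from 7 to 16 for 6499c4 over 6419c5. A line left with 1 library was assumed to vary like the others. Calls kept under every setting and left-out library numbered 10 of 22, 12 of 23 and 4 of 17. Scaling by read totals moved the median of all genes by 0.11 for 6499c4 over 2838c3, with 3674 higher and 2404 lower calls against 2864 and 3109, while the members split 19 and 5 against 17 and 6. For 6499c4 over 6419c5 it gave 3096 higher and 2026 lower calls against 2291 and 2545, and 14 and 4 members against 12 and 5. For 6499c4 over 2838c3 the members split 12 and 7 after GC and length correction and 13 and 6 without the variance trend. With limma-voom they split 20 and 8. All genes split 2867 and 3018, 2731 and 2955, and 3324 and 3591 in the same order, so the excess of higher members varied with the setting. Low genes such as Pycr1, Chac1 and Ddit4 rest on as few as 27, 28 and 28 reads in a library, so only large ratios were detectable there. With 2 residual degrees of freedom, members with more reads could also miss the threshold for G-1. Atf5, with read ratios from 1.32 to 1.5, had a limma adjusted p of 0.216.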

Other observations

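Outside the 41 genes, Atf3, a stress-induced factor of the ATF family, had 5.74 FPKM in 6499c4, 20.4 in 6419c5 and 16.8 in 2838c3 with G-1, against 4.59, 16.8 and 13.9 FPKM with vehicle in the same lines. It was lower in 6499c4 than in 2838c3 (log2 difference -1.41, limma adjusted p = 3.42e-05) and than in 6419c5 (-1.67, limma adjusted p = 2.37e-05). Eif2s3x, an X-linked gene of the gamma subunit of eIF2, had 17.8 FPKM with G-1 and 17.7 with vehicle in 6499c4 and 33.7 with G-1 and 35.0 with vehicle in 6419c5, against 32.1 with either treatment in 2838c3, a log2 difference of -0.82 for 6499c4 over 2838c3 (limma adjusted p = 0.000145). Its promoter window was the 1 of 11 among the eIF2 control genes that held the core of the composite element. Of the 11 cytosolic synthetase and scaffold genes outside the 41, Kars, Farsa, Qars and Eef1e1 were lower than in 2838c3 in both other lines by limma adjusted p, and Dars and Rars were higher in both. The log2 differences were -0.68 in 6499c4 and -0.54 in 6419c5 for Kars, -0.72 and -0.69 for Farsa, and -0.69 and -0.57 for Qars. They were 0.19 in 6499c4 and 0.38 in 6419c5 for Dars, and 0.27 and 0.29 for Rars.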
